A study of Macaca mulatta with 6 samples.

Results

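The genes described here encode 10 amino acid transporters of the cell membrane: the cationic amino acid transporters SLC7A1 and SLC7A2, the heavy chain SLC3A2 with its light chains SLC7A5 and SLC7A6, the sodium-coupled neutral transporters SLC38A1 and SLC38A2, the neutral amino acid exchangers SLC1A4 and SLC1A5, and the glutamate transporter SLC1A3. They were chosen by symbol from the deposited transcript table, and all 10 were present among its 24932 genes. RNA was measured in RF/6A, a rhesus macaque line described as choroidal endothelial, after 4 hours in 50% human serum. The treated cells received normal serum, whose complement is active and can build the membrane attack complex, a pore in cell membranes (3 libraries). The controls received the same share of serum after heating, which destroys complement activity (3 libraries). Both groups were confluent cells on porous inserts and both had human serum, and none of these samples had complement blocked in another way, so active complement cannot be told apart from anything else that heating changes.

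Cells take up most amino acids through carriers that exchange one amino acid for another or couple uptake to sodium. SLC1A5 and the SLC38 carriers bring in glutamine and other small neutral amino acids. The SLC7A5 and SLC3A2 pair exchanges intracellular glutamine for large neutral amino acids such as leucine, which activates the growth kinase complex mTORC1. In endothelial cells SLC7A1 is known as the main carrier of arginine, the substrate of nitric oxide synthase, and several of these carriers are targets of ATF4, the transcription factor that amino acid shortage switches on.

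Values are FPKM, fragment counts scaled by transcript length and library size, summed over the 18 annotated transcripts of the 10 genes (of 44605 in the table). A level in FPKM thus depends on the annotated transcript lengths, which ran from 1035 to 5503 bases for these genes. The steps between the lowest values placed the depth at 14400000 to 17900000 fragments in the normal serum libraries and at 14700000 to 16800000 in the controls, where the replicate 1 library of each group gave only an approximate depth. In replicates 2 and 3, every transporter gene came out within 0.01 of a whole number of fragments, from 79 for SLC7A6 to 3022 for SLC3A2. Of 10 endothelial markers, 3 averaged at least 1 FPKM (PECAM1, ENG and ESAM, each higher in normal serum), while CDH5, which encodes VE-cadherin, was at 0.0110 FPKM in normal serum and was listed at 0 in heat-inactivated serum, so the markers do not establish the endothelial label. The endothelial markers summed to 82.6 to 94.1 FPKM in normal serum and 67.5 to 69.0 FPKM in heat-inactivated serum. Most of this was ENG, which averaged 74.2 FPKM in normal serum and 61.2 FPKM in heat-inactivated serum. KDR and VWF were too low to be tested. KDR averaged 0.105 FPKM in normal serum and 0.370 FPKM in heat-inactivated serum, and VWF 1.05 and 0.172 FPKM. All 9 fibroblast and mural markers found were above 1 FPKM, with summed levels of 4437 to 4658 FPKM in normal serum and 7738 to 8260 FPKM in heat-inactivated serum, 8 of them lower and 1 higher. The part of these markers in the transporter results was not tested, and in bulk RNA fewer cells of a type and less RNA per cell cannot be told apart. Retinal pigment epithelium markers summed to 37.1 to 44.2 FPKM in normal serum and 37.8 to 42.2 FPKM in heat-inactivated serum, nearly all of it PMEL, and leukocyte markers to 9.14 to 10.7 FPKM in normal serum and 8.10 to 10.1 FPKM in heat-inactivated serum, with AIF1 at 0 in every library. The labels do not state separate cultures for the replicates, and the p-values then rest on a spread that may be technical.

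Normal serum moved the transporters in both directions. Of the 10 genes, 4 were higher (SLC7A5, SLC7A1, SLC7A6 and SLC3A2), 2 were lower (SLC1A4 and SLC1A3) and 4 were not past the threshold (limma on log2(FPKM + 1), adjusted p under 0.05 over 11818 genes). Of all genes tested, 54.0% were called by the same rule, 27.8% higher and 26.1% lower, so the share of transporters called was near that of all genes. Their median log2 change was -0.056, beside 0.011 over all genes tested. In 6 of the 10 genes the 3 libraries of one group lay wholly above those of the other, which was also so for 62.6% of all genes tested.

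**Figure D1:**
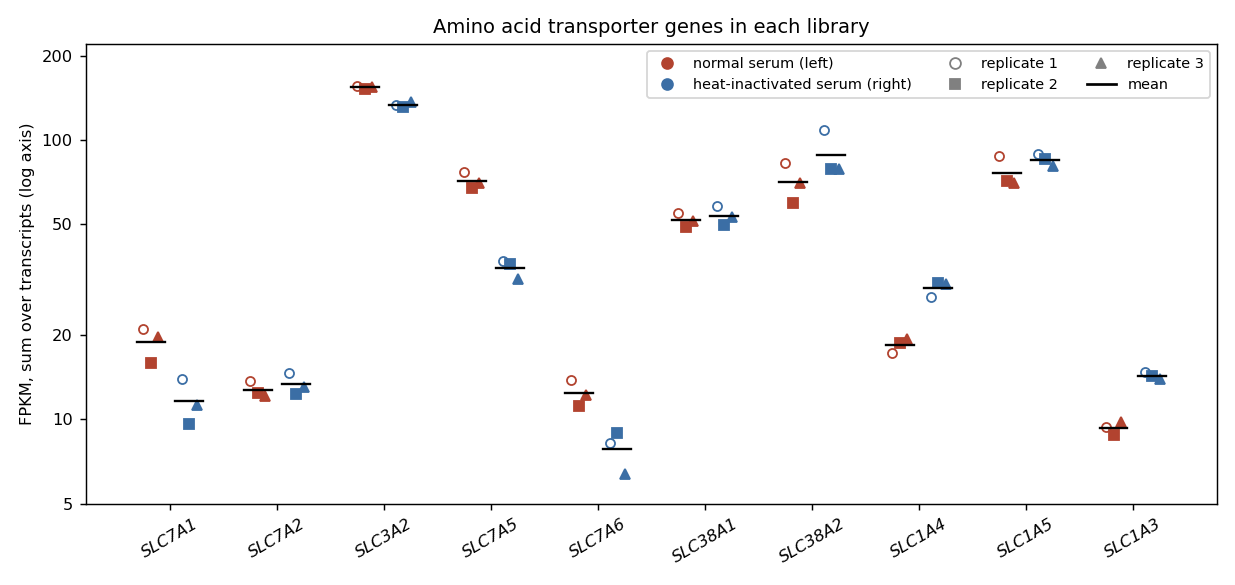
Summed FPKM (log axis) of the 10 transporter genes in each of the 6 libraries, with normal serum left of heat-inactivated serum and a black line at each mean. SLC7A5 lies between 67.2 and 76.4 FPKM in normal serum and between 31.9 and 36.8 FPKM in heat-inactivated serum, while SLC7A2 and SLC38A1 overlap between the groups.

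The 2 replicate 1 libraries differ in kind from the rest, since 36.3% of the lowest values were whole fragments in that of normal serum and 39.4% in that of heat-inactivated serum (within 0.1 of a whole number, which chance gives for 20%), against 100% in the other 4 libraries. The 6 calls were also made within replicates 2 and 3 alone, where the log2 changes were 1.00 for SLC7A5, 0.71 for SLC7A1, 0.57 for SLC7A6, 0.19 for SLC3A2, -0.66 for SLC1A4 and -0.56 for SLC1A3. Between the 2 replicate 1 libraries, where no test can be made, these changes were 1.03, 0.57, 0.69, 0.22, -0.64 and -0.60 in the same order of genes.

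**Figure D2:**
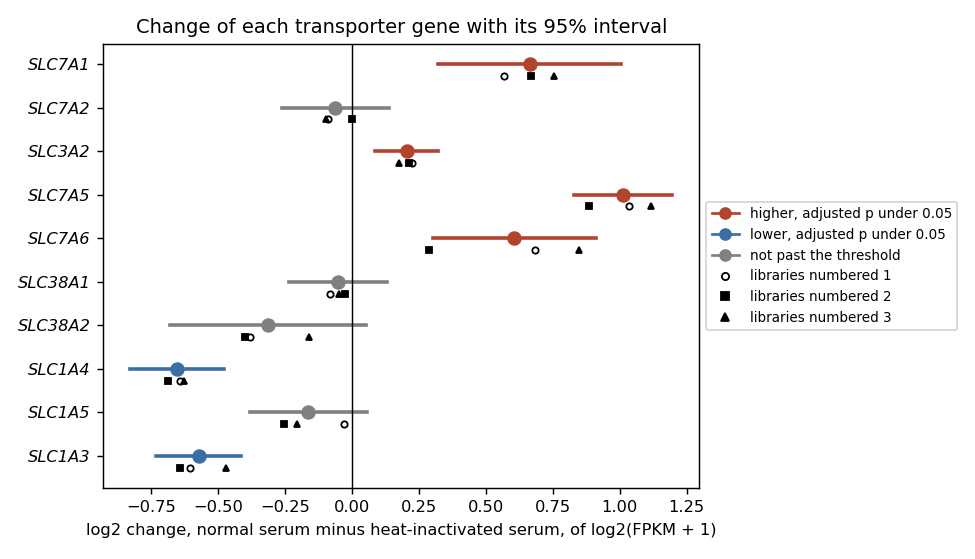
Change in log2(FPKM + 1), normal serum minus heat-inactivated serum, for each gene (large points) with its 95% interval from limma (bars), and the difference between libraries with the same replicate number (small symbols). SLC7A5 changed most, by 1.01, and the intervals of SLC7A2, SLC38A1, SLC38A2 and SLC1A5 span 0.

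Of the cationic amino acid transporters, SLC7A1 rose and SLC7A2 did not pass the test. SLC7A1, on chromosome 17 and known as the widely expressed carrier of arginine and lysine, stood at 21.1, 15.9 and 19.7 FPKM in the normal serum libraries, against 13.9, 9.64 and 11.2 FPKM in the heat-inactivated serum libraries. The groups did not overlap, and the replicate 1 library was the highest of its group in both. In mean FPKM the rise was 1.63-fold, with a log2 change of 0.66 ± 0.15 (SE, n = 3 per group, limma adjusted p = 0.00691). In replicates 2 and 3 these levels rested on 465 and 680 fragments in normal serum and on 314 and 319 fragments in heat-inactivated serum. SLC7A2, on chromosome 8, encodes a carrier of the same amino acids that is induced in activated macrophages. It had 13.7, 12.4 and 12.2 FPKM in normal serum and 14.7, 12.4 and 13.1 FPKM in heat-inactivated serum, values that overlap. Its log2 change of -0.062 had a 95% interval of -0.26 to 0.14 (limma adjusted p = 0.567), so a change of up to 1.10-fold upward or down to 0.835 of the control level lies within the interval. With SLC7A1 higher, the order of the 2 genes in FPKM differed between the groups: SLC7A1 was above SLC7A2 in each normal serum library and below it in each heat-inactivated serum library. This order rests on annotated lengths, 2125 bases for SLC7A1 and 5503 bases for the main SLC7A2 transcript. SLC7A2 had more fragments than SLC7A1 in replicates 2 and 3 of both groups (993 and 1156 in normal serum, 1096 and 1014 in heat-inactivated serum).

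The heavy chain SLC3A2, on chromosome 14, is a single-pass glycoprotein, also called CD98 or 4F2hc, that carries its light chains to the cell surface. It was the most abundant of the 10 genes in every library, at 156, 152 and 154 FPKM in normal serum and at 133, 131 and 136 FPKM in heat-inactivated serum. The groups did not overlap, with every normal serum library above every control. The mean was 1.15-fold higher (log2 change 0.20 ± 0.050, SE, n = 3 per group, limma adjusted p = 0.0108). That rise depended on the scaling of the libraries: rescaled to the same total FPKM it was 0.061 (adjusted p = 0.598), to the same total of transcripts of at least 300 bases 0.034 (adjusted p = 0.607), and after quantile normalization -0.016 (adjusted p = 0.811).

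The light chain SLC7A5, known as LAT1 and on chromosome 20, showed the largest change of the 10 genes. Its level was 76.4, 67.2 and 70.3 FPKM in the normal serum libraries, against 36.8, 35.9 and 31.9 FPKM in the heat-inactivated serum libraries. The lowest normal serum library was thus far above the highest control. Mean FPKM was 2.05-fold higher (log2 change 1.01 ± 0.079, SE, n = 3 per group, limma adjusted p = 6.39e-05), and 93.6% of all genes tested changed less in size. Behind it lay 871 and 1077 fragments in normal serum replicates 2 and 3, and 519 and 401 in those of heat-inactivated serum. SLC7A6, or y+LAT2, also on chromosome 20, exchanges cationic for neutral amino acids. It was scarcer, at 13.9, 11.2 and 12.2 FPKM in normal serum and at 8.24, 8.97 and 6.37 FPKM in heat-inactivated serum. Its groups did not overlap, and the 1.58-fold rise in mean FPKM passed the test (log2 change 0.61 ± 0.13, SE, n = 3 per group, limma adjusted p = 0.00596). With 143 and 185 fragments in normal serum replicates 2 and 3 and 128 and 79 in those of heat-inactivated serum, SLC7A6 had the fewest fragments of the 10 genes, and counting alone gives an error of 11.3% at the lowest of these.

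Since a light chain and SLC3A2 form one transporter, their levels were set against each other within each library, a ratio that no rescaling of a whole library changes. SLC7A5 was 0.491, 0.441 and 0.456 of the SLC3A2 level in normal serum, and 0.277, 0.273 and 0.234 of it in heat-inactivated serum. Every normal serum library lay above every control, a 1.77-fold difference in the ratio (log2 difference 0.83, exact two-sided permutation test p = 0.1, the smallest that 3 against 3 libraries allow). For SLC7A6 the ratio to SLC3A2 was 0.0891, 0.0734 and 0.0795 in normal serum and 0.0620, 0.0684 and 0.0467 in heat-inactivated serum. This difference of 1.38-fold was smaller but again without overlap (log2 difference 0.46, exact two-sided permutation test p = 0.1). With 1 library left out in turn the log2 difference was 0.30 to 0.58, lowest without heat-inactivated serum replicate 3.

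SLC3A2 also carries light chains outside the 10 genes, of which SLC7A8, SLC7A7, SLC7A10 and SLC7A11 were in a wider list of transporters. SLC7A8, or LAT2, which carries neutral amino acids of many sizes, changed more than any of the 10 genes. It had 43.5, 40.1 and 43.9 FPKM in normal serum and 9.95, 8.98 and 8.80 FPKM in heat-inactivated serum, a 4.60-fold rise (log2 change 2.09 ± 0.072, SE, n = 3 per group, limma adjusted p = 1.99e-06). SLC7A7, or y+LAT1, went the other way and was scarce, at 0.710, 0.769 and 0.542 FPKM in normal serum and 2.25, 2.26 and 1.71 FPKM in heat-inactivated serum. It fell to 0.325 of its control mean (limma adjusted p = 0.00124), which the log2 change of -0.88 understates at such low levels. It was named after its values were seen, as was the cystine carrier SLC7A11, which averaged 3.65 FPKM in normal serum and 3.04 FPKM in heat-inactivated serum (limma adjusted p = 0.114). SLC7A10 was at or near 0 in all libraries. Summed over these 4 with SLC7A5 and SLC7A6, the light chains came to 138, 123 and 131 FPKM in normal serum and to 60.6, 59.0 and 51.6 FPKM in heat-inactivated serum. The sum was 0.847 ± 0.039 of the SLC3A2 level in normal serum and 0.428 ± 0.043 of it in heat-inactivated serum (SD, n = 3 per group), a sum chosen after its parts were seen and given without a test. SLC7A5 made up 53.8% to 55.4% of the summed light chains in normal serum and 60.7% to 61.8% in heat-inactivated serum, and SLC7A8 made up 31.5% to 33.6% in normal serum and 15.2% to 17.1% in heat-inactivated serum.

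**Figure D3:**
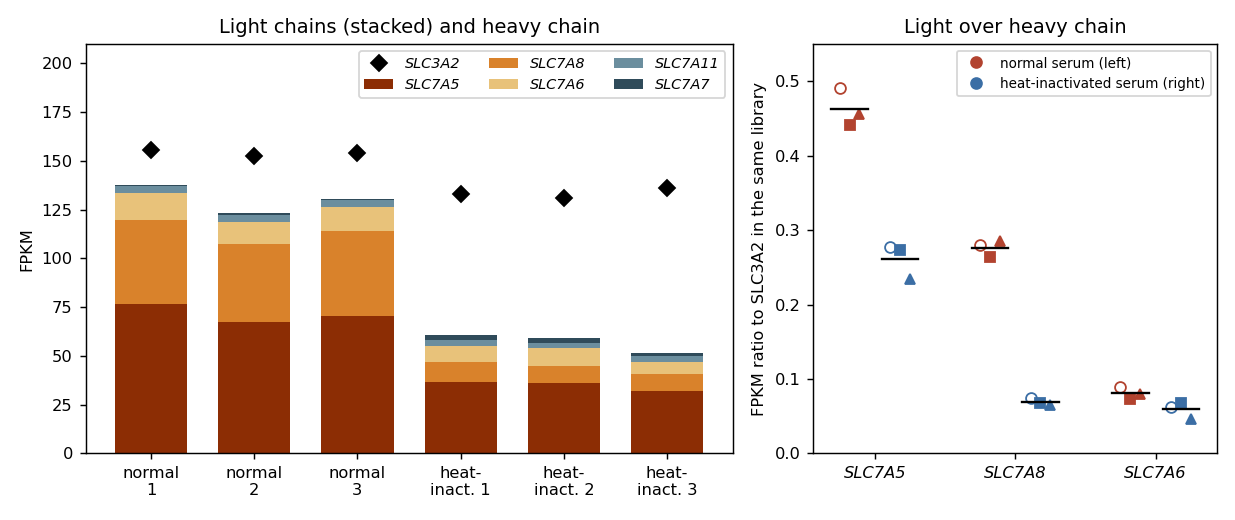
Left, FPKM of 5 light chain genes (stacked bars) and of the heavy chain gene SLC3A2 (diamonds) in each library, with normal serum left of heat-inactivated serum. Right, the FPKM ratio of 3 light chains to SLC3A2 in the same library with means as black lines, where SLC7A5 averages 0.463 in normal serum and 0.261 in heat-inactivated serum.

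Neither sodium-coupled neutral transporter passed the test. SLC38A2, or SNAT2, on chromosome 11, is the carrier of system A activity that responds to amino acid shortage and to osmotic stress. It stood at 82.7, 59.5 and 70.3 FPKM in normal serum and at 108, 78.8 and 78.6 FPKM in heat-inactivated serum. The replicate 1 library was the highest of its group in both, and that of normal serum lay above 2 of the 3 controls. Its log2 change was -0.31, with a 95% interval of -0.68 to 0.054 (limma adjusted p = 0.13). A term for the replicate 1 libraries left the change as it was and made it a call (adjusted p = 0.00895), and within replicates 2 and 3 alone the change was -0.28 (adjusted p = 0.0512). Without heat-inactivated serum replicate 1 it was -0.16, and without normal serum replicate 2 it was -0.20 (adjusted p = 0.342 and 0.345). SLC38A1, or SNAT1, also on chromosome 11, carries glutamine and alanine. Its summed level was 54.7, 48.6 and 51.3 FPKM in normal serum and 57.9, 49.5 and 53.1 FPKM in heat-inactivated serum. These groups overlapped throughout, with a log2 change of -0.051 and a 95% interval of -0.23 to 0.13 (limma adjusted p = 0.603).

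Beneath the sum of SLC38A1 lay an uneven split between its annotated transcripts, the main ones of which are 3330 and 3329 bases long. The transcript of 3329 bases held 52.3%, 83.1% and 17.2% of the gene's FPKM in the normal serum libraries, and 53.7%, 3.96% and 16.6% in the heat-inactivated serum libraries. These shares varied as much within a group as between groups (difference of means 26.1 percentage points, exact two-sided permutation test p = 0.4). In the authors' deposited table the log2 change was 0.89 for this transcript, marked LOWDATA, and -0.64 for the one of 3330 bases, with a q-value of 0.34. For the transcript of 3329 bases the authors' group values were 34.5 FPKM in normal serum and 31.1 FPKM in heat-inactivated serum. The means of its libraries were 25.9 and 14.0 FPKM. The split is therefore not read here as a difference in transcript use. Taking the most abundant transcript alone for the gene gave a log2 change of -0.83 (limma adjusted p = 0.237), against -0.051 for the sum. For SLC3A2 the split was steady: the transcript of 1260 bases held 82.3% to 85.6% of the FPKM in normal serum and 84.8% to 87.4% in heat-inactivated serum.

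**Figure D4:**
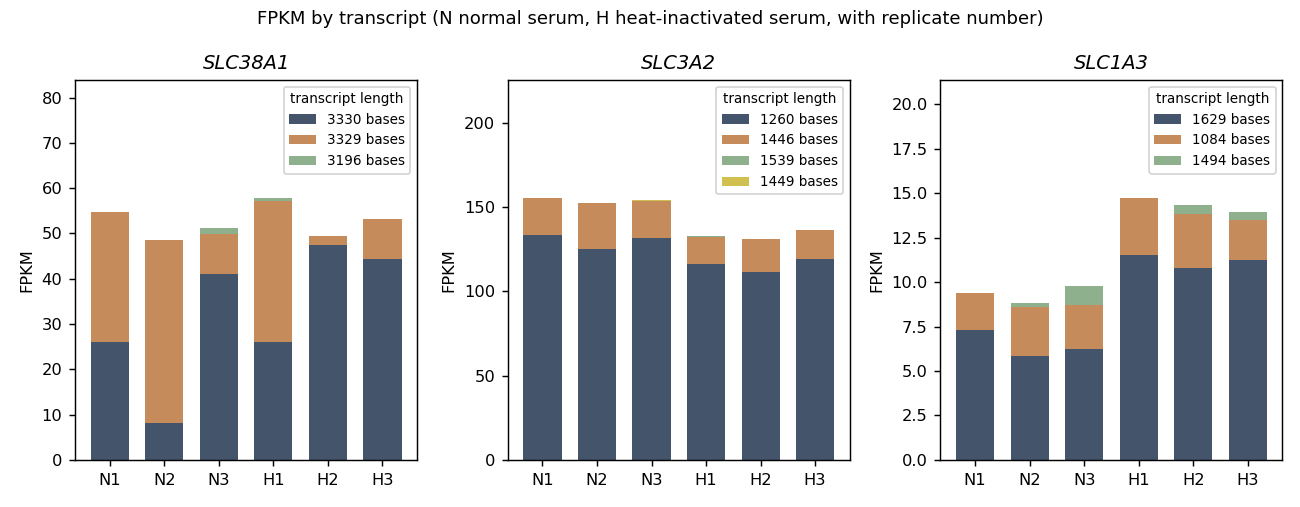
FPKM of each annotated transcript (stacked colours, by length) of SLC38A1, SLC3A2 and SLC1A3 in the 3 normal serum (N) and the 3 heat-inactivated serum (H) libraries. The SLC38A1 total stays between 48.6 and 57.9 FPKM while the share of its transcript of 3329 bases ranges from 3.96% to 83.1%.

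Of the exchangers of small neutral amino acids, SLC1A4 fell and SLC1A5 did not pass the test. SLC1A4, or ASCT1, on chromosome 13, carries alanine, serine and cysteine. It had 17.2, 18.7 and 19.4 FPKM in normal serum, against 27.5, 30.8 and 30.5 FPKM in heat-inactivated serum. The groups were far apart, with normal serum at 0.624 of the control mean (log2 change -0.65 ± 0.075, SE, n = 3 per group, limma adjusted p = 3.59e-04). SLC1A5, or ASCT2, on chromosome 19, is the glutamine exchanger of the same family and was more abundant. Its levels were 87.2, 71.3 and 69.9 FPKM in normal serum and 89.0, 85.2 and 80.7 FPKM in heat-inactivated serum. The groups overlapped only through the replicate 1 library of normal serum, and the log2 change was -0.16 with a 95% interval of -0.38 to 0.056 (limma adjusted p = 0.179). Without that library it was -0.26 and past the threshold (adjusted p = 0.0189), and within replicates 2 and 3 alone -0.23 (adjusted p = 0.0294). It was -0.12 without normal serum replicate 2 and -0.11 without normal serum replicate 3 (adjusted p = 0.394 and 0.415). Between the 2 replicate 1 libraries it was -0.029.

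SLC1A3, or GLAST, on chromosome 6, takes up glutamate and aspartate with sodium and is best known from glial cells. It fell to 9.36, 8.83 and 9.79 FPKM in normal serum, against 14.7, 14.3 and 14.0 FPKM in heat-inactivated serum. No library of one group came near the other, and normal serum stood at 0.65 of the control mean (log2 change -0.57 ± 0.068, SE, n = 3 per group, limma adjusted p = 4.05e-04). Taken singly, its transcript of 1629 bases passed the test with a log2 change of -0.71 (limma adjusted p = 0.00214 over 15719 transcripts tested, of which 39.6% were called), while that of 1084 bases did not, with a log2 change of -0.15 (limma adjusted p = 0.45). The share of the transcript of 1629 bases was 77.8%, 66.5% and 63.7% in normal serum and 78.3%, 75.3% and 80.6% in heat-inactivated serum, shares that overlap (exact two-sided permutation test p = 0.2). For the transcript of 1084 bases the share was 22.2%, 31.0% and 25.6% in normal serum and 21.7%, 21.2% and 16.3% in heat-inactivated serum, without overlap but with the nearest libraries at 22.2% and 21.7% (exact two-sided permutation test p = 0.1, the smallest possible). The other glutamate transporter above 1 FPKM, SLC1A1, also fell, averaging 14.4 ± 0.279 FPKM in normal serum and 19.9 ± 0.615 FPKM in heat-inactivated serum (SD, n = 3 per group, limma adjusted p = 7.68e-04).

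Ordered by level, SLC3A2 came first in both groups. In normal serum it was followed by SLC1A5, SLC7A5 and SLC38A2, which averaged 76.1, 71.3 and 70.8 FPKM and overlapped each with the next, then by SLC38A1, by SLC7A1 and SLC1A4 (18.9 and 18.5 FPKM, overlapping), by SLC7A2 and SLC7A6 (12.8 and 12.4 FPKM, overlapping) and by SLC1A3 (9.33 FPKM). In heat-inactivated serum the order was SLC38A2 and SLC1A5 (88.5 and 85.0 FPKM, overlapping), SLC38A1, SLC7A5, SLC1A4, then SLC1A3, SLC7A2 and SLC7A1 (14.3, 13.4 and 11.6 FPKM, each overlapping the next), and last SLC7A6 (7.86 FPKM). All 10 genes together came to 532, 466 and 489 FPKM in normal serum and 504, 457 and 456 FPKM in heat-inactivated serum, totals that overlap. Within that total the heavy chain with its 2 light chains made up 46.2% to 49.5% in normal serum and 35.3% to 38.6% in heat-inactivated serum. SLC1A4 with SLC1A5 made up 18.3% to 19.6% in normal serum and 23.1% to 25.4% in heat-inactivated serum. SLC38A1 with SLC38A2 made up 23.2% to 25.8% in normal serum and 28.1% to 32.9% in heat-inactivated serum. These are shares of one total, so a rise in some genes lowers the shares of the others. In FPKM, SLC38A1 with SLC38A2 came to 137, 108 and 122 in normal serum and 166, 128 and 132 in heat-inactivated serum, which overlap.

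Small changes depended on how the libraries were scaled. Rescaling to the same total FPKM moved the median log2 change of all genes to -0.12, and rescaling to the same total of transcripts of at least 300 bases moved it to -0.14. Both shift all genes of a library alike, so changes relative to the median stay nearly the same by construction. With the same total of transcripts of at least 300 bases, SLC38A1, SLC38A2 and SLC1A5 were also called lower (limma adjusted p = 0.0492, 0.0333 and 0.0137), while relative to the median their log2 changes were -0.077, -0.34 and -0.19, against -0.062, -0.32 and -0.17 as deposited. Quantile normalization, which is not a uniform shift, gave log2 changes relative to the median of 0.87 for SLC7A5, 0.67 for SLC7A1, 0.66 for SLC7A6, 0.0032 for SLC3A2, -0.70 for SLC1A4 and -0.53 for SLC1A3. As deposited these were 1.00 for SLC7A5, 0.65 for SLC7A1, 0.60 for SLC7A6, 0.19 for SLC3A2, -0.66 for SLC1A4 and -0.58 for SLC1A3. The rises of SLC7A5, SLC7A1 and SLC7A6 and the falls of SLC1A4 and SLC1A3 were called under all 4 scalings.

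**Figure D5:**
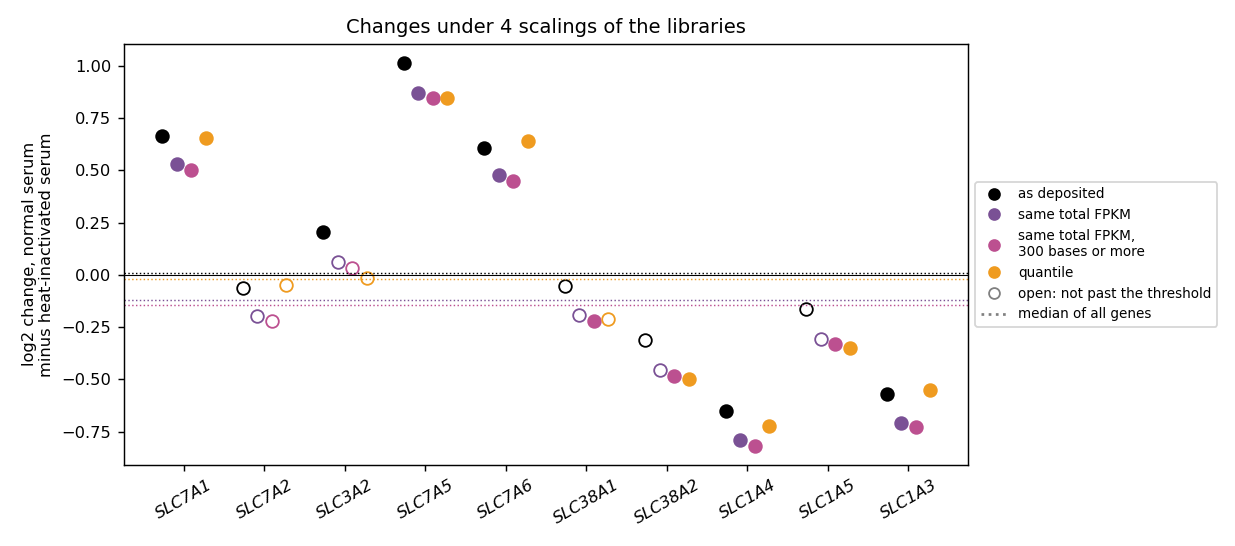
Log2 change (normal serum minus heat-inactivated serum) of each gene with the libraries as deposited and under 3 other scalings, with filled points past the threshold, open points not, and dotted lines at the median of all genes. SLC3A2 moves between 0.20 and -0.016, while SLC7A5 stays between 0.84 and 1.01.

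The authors' deposited table, which tests transcripts one by one, gave 13 of the 18 transporter transcripts the status OK and marked 5 of these 13 as passing its q-value limit: those of SLC7A5, SLC7A6, SLC7A1 and SLC1A4 and the SLC1A3 transcript of 1629 bases. Of all transcripts with the status OK there, 25.1% carried that mark. In the authors' deposited table the SLC7A5 transcript was the 1 transporter transcript that passed all of its limits, on FPKM, fold change and q-value, with a log2 change of 1.03 and a q-value of 2.23e-04. Its log2 changes for SLC7A6, SLC7A1 and SLC1A4, as deposited by the authors, were 0.66, 0.70 and -0.68. The authors' deposited table gave SLC38A2 a log2 change of -0.32 and a q-value of 0.00238, not marked as passing.

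Of 38 other amino acid transporters in a wider list, 13 were expressed highly enough to be tested, with a median log2 change of -0.28. Of these, 4 were called higher and 6 lower (76.9% called, beside 54.0% of all genes tested, 27.8% higher and 26.1% lower). SLC7A8, described above, led the rises. SLC6A15, a sodium-coupled carrier of branched-chain amino acids, averaged 6.00 ± 0.543 FPKM in normal serum and 2.89 ± 0.175 FPKM in heat-inactivated serum (SD, n = 3 per group, limma adjusted p = 3.06e-04). SLC38A10 fell to 44.3 ± 2.54 FPKM in normal serum, against 61.9 ± 3.35 FPKM in heat-inactivated serum (SD, n = 3 per group, limma adjusted p = 0.00101).

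Genes of the amino acid response, the program that the kinase GCN2 and ATF4 run when amino acids are short, were called in both directions, as were genes in general. Of 25 tested, 7 were higher and 9 lower, a called share of 64% beside 54.0% of all genes tested, with a median log2 change of -0.09. ATF3, a stress-induced transcription factor, rose 6.81-fold, while EIF2AK4, which encodes GCN2, fell to 0.533 of its control mean, STC2 to 0.52 and the glutathione-degrading enzyme CHAC1 to 0.576 (limma adjusted p = 6.45e-05, 3.72e-05, 5.41e-05 and 1.00e-04). ATF4 itself, named after its values were seen, had 842, 878 and 813 FPKM in normal serum and 728, 747 and 751 FPKM in heat-inactivated serum (log2 change 0.19, limma adjusted p = 0.0241). This difference was about the size that other scalings removed for SLC3A2, but ATF4 was not examined under those scalings. Asparagine synthetase, ASNS, a classical ATF4 target also named after its values were seen, averaged 33.9 FPKM in normal serum and 33.6 FPKM in heat-inactivated serum (limma adjusted p = 0.884).

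Of 14 glutamine and glutamate metabolism genes tested, 3 were higher, 2 lower and 9 not called, a share of 35.7% called beside 54.0% of all genes tested. The glutathione synthase GSS rose 1.55-fold and the mitochondrial aminotransferase GOT2 1.55-fold, and the alanine aminotransferase GPT2 fell to 0.746 of its control mean (limma adjusted p = 3.61e-04, 3.70e-04 and 0.00563). Of 12 tested genes of nitric oxide, urea and polyamine metabolism, 7 were higher and 3 lower, with a median log2 change of 0.36. That was 83.3% called beside 54.0% of all genes tested. The nitric oxide synthases, the arginases and GATM, listed with them, were too low to be tested. Of these, ARG2 averaged 1.18 FPKM in normal serum and 0.421 FPKM in heat-inactivated serum, and GATM 0.448 and 0.793 FPKM. The 3 genes called lower were ADC, ASS1 and AZIN1, at 0.353, 0.763 and 0.832 of their control means (limma adjusted p = 0.00109, 0.0123 and 0.00642). The polyamine genes AMD1, SAT1 and SRM rose 1.84-fold, 2.00-fold and 1.56-fold, and DDAH1, which degrades inhibitors of nitric oxide synthase, rose 1.54-fold (limma adjusted p = 5.09e-05, 7.32e-05, 1.81e-04 and 5.22e-04). NOS3, the endothelial nitric oxide synthase and named after its values were seen, was listed at 0 in all libraries but normal serum replicate 3, where it was at 0.0148 FPKM.

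The genes most like SLC7A5 were sought by the root mean square difference of log2(FPKM + 1), taken relative to the control mean, over the 6 libraries. ZNF385A (0.0395) and RBM47 (0.0465) were among the closest, with mean folds of 2.14 and 2.17. Closest to SLC1A4, the gene that fell most, were PBXIP1 (0.0177), IGBP1 (0.0305) and TMCO7 (0.0329), at 0.625, 0.638 and 0.582 of their control means.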

How the data were processed

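The authors deposited FPKM per transcript for each library. The submitters' processing notes name the tools TopHat2 2.0.7, Cufflinks 2.1.1 and Cuffdiff 2.1.1. The genome build was not given in the sources used here. Beside these values the deposited table holds transcript lengths and the authors' FPKM per treatment, p-value, q-value and log2 fold change for each transcript. The transporters and gene lists were chosen with earlier results of these data known. FPKM of transcripts with the same symbol were summed to 24932 genes, after 256 of 7008 transcript IDs without a symbol were given one from a reference table of names. The library kit named in the labels does not mark strand, so overlapping genes on opposite strands cannot be told apart. Of 175 list genes 168 were found. Deposited FPKM does not suit a count test. Genes averaging 1 FPKM or more were therefore compared as log2(FPKM + 1) by limma 3.58.1 in R 4.3.3 (trended variance, Benjamini-Hochberg adjustment over 11818 genes). This scale understates changes of low genes; each fold is a ratio of group means in FPKM. Named beside the 10 transporters were the called genes ranked first by adjusted p in each list, at most 4, and the 3 genes most like the transporters that rose and fell most. One gene that this rule names is not reported here. Other names were chosen after their values were seen. The whole fragments were read from the steps of FPKM at low values, and cover counting error only. Alternatives varied the pseudocount, filter, scaling, variance model, transcripts and libraries. Tests by transcript, transcript shares and the summed light chains were added after seeing the data. Promoter and protein sequences were not analysed here.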

Additional observations from a re-analysis of the deposited data

How the results depend on the processing

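Each gene was refitted under 20 alternatives. SLC7A5, SLC7A1, SLC7A6, SLC1A4 and SLC1A3 kept their direction and their call under all of them. In that order, their log2 changes were 0.84 to 1.05, 0.50 to 0.79, 0.45 to 0.70, -0.82 to -0.61 and -0.73 to -0.54. Alternatives of the filter, variance model and replicate terms leave each log2 change as it was and can move only the call. So do those of the transcripts for SLC7A5, SLC7A1, SLC7A6 and SLC1A4, which have 1 transcript each. The SLC3A2 call was lost under the 3 other scalings, with a log2 change of -0.016 after quantile normalization. The number of the 10 genes called lower was 2 in the main fit. It was 3 with the replicate number as a block, within replicates 2 and 3 alone and without normal serum replicate 1. After quantile normalization it was 4, as it was once the replicate 1 libraries had a term of their own. With the same total FPKM of transcripts of at least 300 bases it was 5, and in the remaining alternatives it stayed at 2. Leaving out one library in turn gave -0.11 to 0.0024 for SLC7A2 and -0.11 to 0.0062 for SLC38A1, both positive without replicate 1 of heat-inactivated serum. Of the 4 genes not called, SLC38A1 was called lower in 1 alternative, SLC38A2 in 4 and SLC1A5 in 5. Between 5455 and 5872 genes were called in all when one library was left out, against 6381 with all libraries. Rescaling to the same total FPKM moved the share of calls that were higher from 51.6% to 34.6%, and to the same total of transcripts of at least 300 bases to 33.0%. Depth limits SLC7A6 most, with 79 fragments in 1 library. The cause of these differences was not tested.

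The libraries share replicate numbers, but the deviations of same-numbered libraries correlated at 0.19, 0.033 and 0.0059. Only 1 of 3 normal serum libraries correlated best with its own number, so the numbers were not taken as pairs. Normal serum replicate 2 correlated with heat-inactivated serum replicate 3 at 0.11, and normal serum replicate 3 with heat-inactivated serum replicate 2 at 0.086. Between replicate 1 of one group and replicates 2 and 3 of the other, all correlations were negative (-0.13 to -0.089). A term for the replicate 1 libraries called 7063 genes, with SLC38A2 and SLC1A5 also lower (limma adjusted p = 0.00895 and 0.0489). A fit with the replicate number as a block called 6775 genes, with 4 transporters higher and 3 lower (SLC38A2 in addition, adjusted p = 0.0107). By construction that block leaves the log2 differences of the SLC7A5 and SLC7A6 ratios to SLC3A2 at 0.83 and 0.46. With same-numbered libraries as pairs, an exact two-sided test over sign changes of the paired log2 differences gave p = 0.25 for each. That is the smallest p-value that 3 pairs allow.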

Other observations

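Mitochondrial amino acid carriers, which move amino acids across the inner mitochondrial membrane, were called in both directions too. Of 7 tested, 3 were higher and 1 lower, a called share of 57.1% beside 54.0% of all genes tested, with a median log2 change of 0.23. SLC25A22, a glutamate carrier, averaged 40.6 ± 0.289 FPKM in normal serum and 17.4 ± 2.00 FPKM in heat-inactivated serum (SD, n = 3 per group, limma adjusted p = 5.09e-05). The glycine carrier SLC25A38 rose 1.64-fold (limma adjusted p = 1.40e-04). SLC25A12, an aspartate and glutamate carrier, fell to 0.591 of its control mean (limma adjusted p = 8.29e-04), a call lost with its most abundant transcript alone (adjusted p = 0.0628). SLC25A15, an ornithine carrier, averaged 1.92 FPKM in normal serum and 1.02 FPKM in heat-inactivated serum (log2 change 0.55, limma adjusted p = 0.0234). Its log2 change was 0.56, 0.57 and 0.52 without each normal serum library in turn (adjusted p = 0.0504, 0.0511 and 0.0673). The call was also lost within replicates 2 and 3 alone (0.63, adjusted p = 0.0602), with the most abundant transcript alone (0.40, adjusted p = 0.0929) and with the same total of transcripts of at least 300 bases (0.45, adjusted p = 0.0535).

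Of 30 tested genes of lysosomal amino acid transport and of amino acid sensing by mTORC1, 7 were higher and 12 lower, a called share of 63.3% beside 54.0% of all genes tested, with a median log2 change of -0.17. NPRL3, a subunit of the GATOR1 complex that inhibits mTORC1, averaged 12.1 ± 0.356 FPKM in normal serum and 18.7 ± 0.583 FPKM in heat-inactivated serum (SD, n = 3 per group, limma adjusted p = 2.51e-04). FNIP1, a partner of folliculin, and the Rag GTPase genes RRAGB and RRAGC fell to 0.647, 0.639 and 0.656 of their control means (limma adjusted p = 4.57e-04, 8.21e-04 and 0.00151). The other Rag genes were named after their values were seen. RRAGD also fell, to 0.669 of its control mean (limma adjusted p = 0.00518). RRAGA, the most abundant of them, rose instead, averaging 113 FPKM in normal serum and 93.3 FPKM in heat-inactivated serum (log2 change 0.27, limma adjusted p = 0.00419). Like ATF4, RRAGA was not examined under the other scalings, under which the SLC3A2 call was lost.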
